A study of Mus musculus with 2 samples.

Results

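The genes described here encode the enzymes that modify transfer RNA (tRNA), with the partner subunits they need, in a map of Sap130 on the chromatin of the embryonic mouse heart. Their 39 members were taken by name from the protein-coding genes of the RefSeq annotation of build GRCm38, out of 21779 such genes used, and each was marked by the Sap130 summits within 1000 bp of either of its boundaries or inside it. The names were picked after the scores of some members were known, so the marks and scores below are a description and carry no test. The ChIP library was made by chromatin immunoprecipitation with 2 µg of an antibody to Sap130 from hearts of C57BL/6 embryos at E12.5, and the other was input DNA of the same tissue, stage and strain, made with no antibody. With 1 library of each kind there was no replicate error, and how many hearts went into a library is not given in the sources used here.

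Sap130 is a subunit of the Sin3 complex, which carries histone deacetylases to promoters. Transfer RNAs are among the most heavily modified RNAs of a cell. Methyl groups, pseudouridines and dihydrouridines bear on the fold and the stability of the molecule, while modifications of the anticodon loop bear on how codons are read. Many of the enzymes work as pairs of a catalytic and a supporting subunit, and some act on the tRNAs of mitochondria, on which the heart depends for its energy supply.

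The authors' list held 14881 summits on nuclear chromosomes, each with a score in −log10 units, of a p-value or else a q-value. The score ranks summits within this list, grows with depth as well as enrichment, and gives no fold over input. Its median over all summits was 33.3 and its upper quartile 65.2. The depth of the libraries is unknown, and summits do not measure expression, so the labelled tissue could not be checked against marker genes.

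The promoters of the 3 members with the highest scores at a start, and of the 2 members with no summit, are shown because they mark the extremes of the set. Each runs from 250 bases before to 50 bases after a start listed by RefSeq on GRCm38.p6, and is written 5′ to 3′ on the strand of the gene. The best summits of Mettl1, Trmt61a and Trmt2a lay outside the windows shown, 115 and 113 bp downstream and 370 bp upstream of the start. Capitals mark matches, on either strand, to any of 9 short motifs described further on. The windows are chr10:127041682-127041981 (plus strand) for Mettl1, chr12:111677855-111678154 (plus) for Trmt61a, chr16:18248633-18248932 (plus) for Trmt2a, chrX:8252357-8252656 (minus) for Ftsj1 and chr9:3334981-3335280 (plus) for Alkbh8.
Mettl1: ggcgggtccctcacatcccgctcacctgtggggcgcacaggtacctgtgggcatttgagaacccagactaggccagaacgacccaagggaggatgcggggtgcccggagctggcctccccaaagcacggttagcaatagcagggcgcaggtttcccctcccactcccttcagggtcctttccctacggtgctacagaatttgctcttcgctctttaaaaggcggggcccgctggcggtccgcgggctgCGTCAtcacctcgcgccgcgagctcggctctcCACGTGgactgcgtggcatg
Trmt61a: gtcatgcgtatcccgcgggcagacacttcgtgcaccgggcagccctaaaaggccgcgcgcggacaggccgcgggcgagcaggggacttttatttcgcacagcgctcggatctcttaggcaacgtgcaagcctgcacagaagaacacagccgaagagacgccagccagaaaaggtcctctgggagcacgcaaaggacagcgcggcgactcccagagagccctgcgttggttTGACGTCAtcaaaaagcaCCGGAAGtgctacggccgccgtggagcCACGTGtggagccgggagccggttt
Trmt2a: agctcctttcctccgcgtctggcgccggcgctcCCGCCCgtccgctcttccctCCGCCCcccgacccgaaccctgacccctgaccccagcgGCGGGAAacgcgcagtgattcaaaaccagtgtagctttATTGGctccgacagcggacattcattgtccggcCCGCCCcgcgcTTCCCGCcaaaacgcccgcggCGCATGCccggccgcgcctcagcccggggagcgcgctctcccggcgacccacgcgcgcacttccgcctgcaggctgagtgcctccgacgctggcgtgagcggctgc
Ftsj1: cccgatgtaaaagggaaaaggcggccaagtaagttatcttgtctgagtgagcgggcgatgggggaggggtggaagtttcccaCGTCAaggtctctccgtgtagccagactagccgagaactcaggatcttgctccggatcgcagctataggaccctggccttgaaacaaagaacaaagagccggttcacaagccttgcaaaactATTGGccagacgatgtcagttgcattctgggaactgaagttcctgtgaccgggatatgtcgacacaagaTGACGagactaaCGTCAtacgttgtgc
Alkbh8: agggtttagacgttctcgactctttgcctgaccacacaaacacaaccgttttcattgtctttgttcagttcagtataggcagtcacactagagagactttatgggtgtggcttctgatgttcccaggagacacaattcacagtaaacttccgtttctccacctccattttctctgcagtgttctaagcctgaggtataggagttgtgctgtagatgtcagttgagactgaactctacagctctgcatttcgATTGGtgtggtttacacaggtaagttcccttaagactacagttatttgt

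Nearly all of the tRNA modification genes carried a Sap130 summit. A summit lay within 1000 bp of a boundary or inside 37 of the 39 genes (94.9%), against 55.0% of all protein-coding genes, and within 1000 bp of a boundary of 33 (84.6%), against 48.4%. Their best scores, the highest of any summit at an end or inside the gene, ran from 9.04 to 372 with a median of 77.6, against a median of 48.9 over the 11972 protein-coding genes with a summit. The best score was at or above 65.2, the upper quartile of all summits, in 21 of the 39 genes (53.8%), against 19.5% of all protein-coding genes. Scores over 100 were found at 15 of the 37 marked members (40.5%) and at 13.7% of all marked genes.

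Much of the marking, though not the higher scores, rests on summits in reach of the boundaries of more than 1 gene. For 19 of the 37 marked members (51.4%) the best summit was also within 1000 bp of a boundary of another protein-coding gene, which was so for 23.3% of all marked genes. When every summit in reach of 2 or more genes was left out, 15 of the 39 members (38.5%) kept one at an end, close to the 36.4% of all protein-coding genes. At an end or inside, 21 members (53.8%) kept one, against 44.5% of all genes. The median score at an end was then 84.3 for those 15 members, against 44.7 for all genes still marked there. The 19 members with a shared best summit had scores of 9.04 to 372 with a median of 76.3, and the 18 others 19.0 to 336 with a median of 80.9, so the 2 sets covered nearly the same range.

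**Figure D1:**
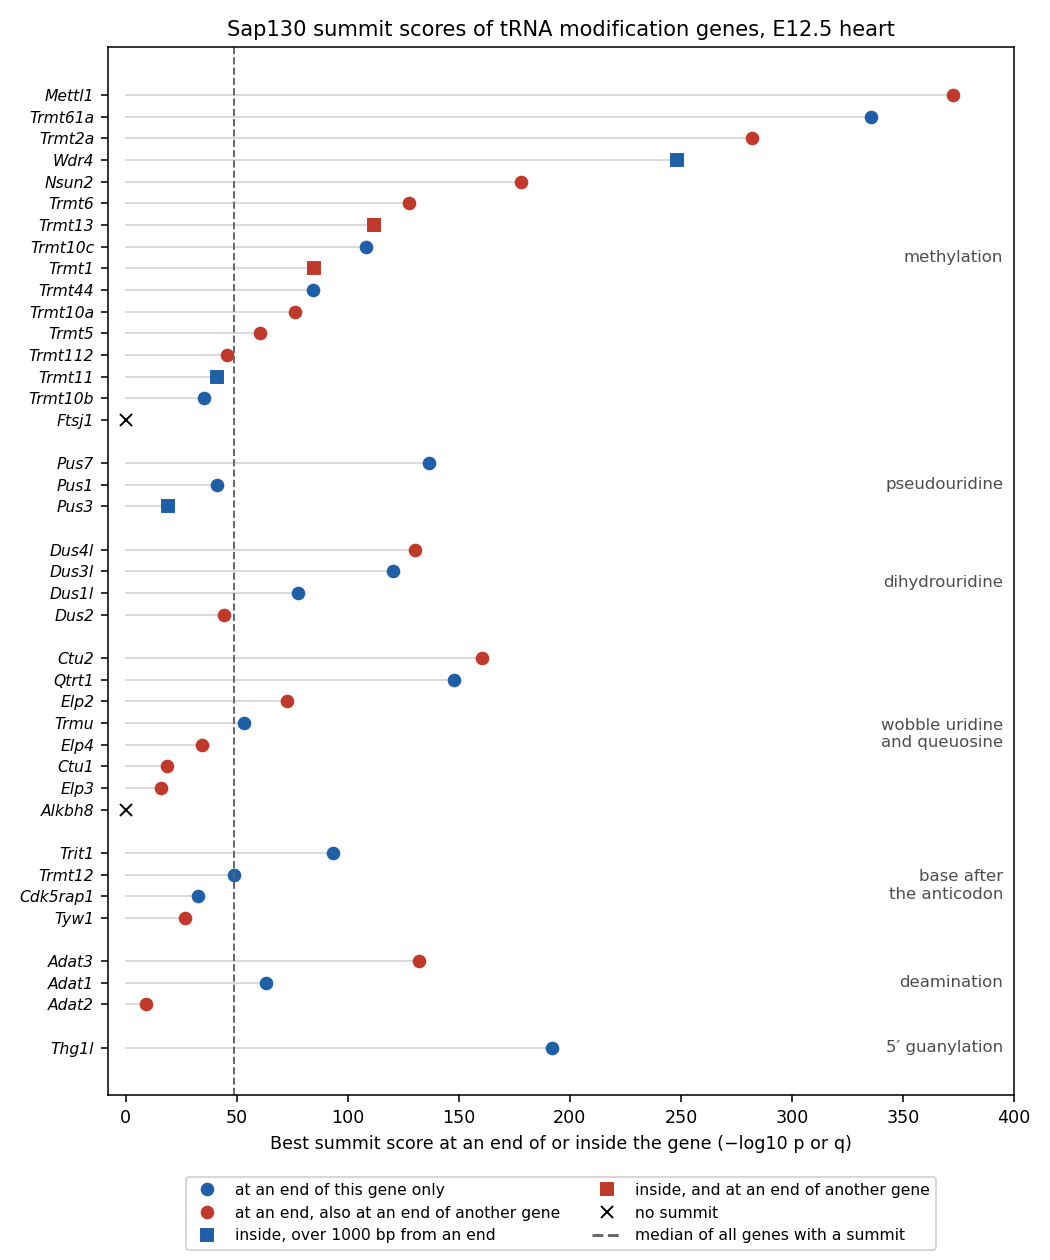
Best Sap130 summit score (horizontal axis, −log10 p or q) of each of the 39 genes, grouped by the kind of modification, in 1 ChIP library. Circles are summits at an end of the gene and squares summits farther inside, red where another gene's boundary is also in reach; crosses are the 2 genes with none, and the dashed line is the median of 48.9 over all marked genes.

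The genes of the methylation enzymes reached the highest scores of the set. Of these 16 genes 15 were marked, with a median best score of 108, and 8 of them were over 100. Mettl1 encodes the catalytic subunit of the enzyme that places 7-methylguanosine, and its score of 372 ranked 2nd among all marked protein-coding genes. The summit (chromosome 10, 127042047) lay 498 bp inside the gene boundary and 115 bp downstream of the listed start, and it was also in reach of a boundary of Eef1akmt3, a methyltransferase gene for an elongation factor. Wdr4, the WD-repeat partner of Mettl1, had 248 and ranked 25th. That summit (chromosome 17, 31512173) lay 7812 bp inside the gene, 314 bp downstream of the listed start, while a weaker one of 62.9 at the outer boundary was shared with Ndufv3, of respiratory complex I. Both subunits of this enzyme were therefore among the 25 marked genes of highest rank, at starts on different chromosomes.

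The enzyme that methylates adenosine in the T loop also consists of a pair of subunits. Its catalytic subunit gene Trmt61a had a summit of 336 (chromosome 12, 111678218), 113 bp downstream of its start and in reach of no other gene. The partner gene Trmt6 had 127, from a summit shared with Mcm8, a helicase gene of DNA repair. Trmt2a, of the enzyme that makes 5-methyluridine in the same loop, had 282 from a summit (chromosome 16, 18248513) outside the gene, 370 bp upstream of its start and 181 bp downstream of the start of its neighbour Ranbp1. By position, that summit was closer to Ranbp1, a regulator of the Ran cycle, than to Trmt2a. Nsun2, of a 5-methylcytosine enzyme, had 178 at 158 bp downstream of its start, with a second summit of 18.1 farther out. Both Nsun2 summits were also in reach of a boundary of Srd5a1.

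The remaining methylation genes covered a wide range. The 3 Trmt10 genes encode relatives that methylate a purine in the core of the tRNA: Trmt10c, whose product acts in mitochondria and is also a subunit of mitochondrial RNase P, had 108, Trmt10a 76.3 and Trmt10b 35.4. The Trmt10a summit was shared with Mttp. Trmt13 and Trmt44, which are genes of enzymes that methylate the ribose, had 112 and 84.3. The Trmt13 summit lay 18613 bp from the nearer boundary but 213 bp downstream of a listed start, and 284 bp upstream of the start of the divergent gene Sass6, of centriole assembly. Trmt1, of the dimethylguanosine enzyme, had 85.0 at 1337 bp inside its boundary, in reach of a boundary of Nacc1. Trmt5, of an enzyme that methylates guanosine beside the anticodon, had 60.4, but the summit was 204 bp upstream of its start and 67 bp downstream of that of Slc38a6.

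Trmt11 and Trmt112 encode a catalytic subunit and its activator, which also serves other methyltransferases. Their scores were close, 41.2 and 45.9, and both lay below the median of all marked genes. The Trmt112 summit was shared with Prdx5. Ftsj1, on the X chromosome, whose product methylates the ribose in the anticodon loop and whose human counterpart is linked to intellectual disability, had no summit. The nearest one lay 32295 bp away.

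Of the 3 pseudouridine synthase genes, Pus7 stood above the other 2. It had 137 at 176 bp downstream of its start, against 41.0 for Pus1, whose product modifies both cytosolic and mitochondrial tRNAs, and 19.0 for Pus3, whose product acts in the anticodon arm. The Pus3 summit was 1020 bp inside the gene, just past the limit of 1000 bp, and counts as inside only. No best summit lay just within that limit, and the farthest of those at an end was that of Cdk5rap1, at 527 bp.

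The 4 dihydrouridine synthase genes, whose products reduce uridines of tRNA to dihydrouridine, were all marked at an end. Their scores were 130.3 for Dus4l, 121 for Dus3l, 77.6 for Dus1l and 44.5 for Dus2, with a median of 99.0. The Dus2 summit lay outside the gene, 192 bp upstream of its start and 200 bp downstream of the start of Ddx28, an RNA helicase gene of mitochondria. The Dus4l summit was 107 bp downstream of its own start and 150 bp upstream of that of Cog5, of the Golgi. Dus3l and Dus1l had theirs 227 and 157 bp downstream of the start and shared them with no gene.

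Genes for modification of the wobble base, the first of the anticodon, were split between high and low scores. Of 8 genes 7 were marked, with a median of 53.5. Ctu2 had 161 and Ctu1 18.7, although their products form 1 complex that adds sulfur to wobble uridine in the cytosol. The Ctu2 summit lay between 2 divergent starts, 255 bp upstream of its own and 164 bp upstream of that of Rnf166. The Ctu1 summit was in reach of a boundary of Siglece. Elongator, which builds the side chain on the same base, had 72.8 at Elp2, 34.3 at Elp4 and 16.03 at Elp3, the gene of its catalytic subunit. All 3 summits were in reach of a neighbouring gene.

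Qtrt1, of the catalytic subunit that inserts queuine in place of the wobble guanine, had 148 at 117 bp downstream of its start. Trmu, of the enzyme that thiolates the wobble uridine of mitochondrial tRNAs, had 53.5 and a second summit of 9.29 upstream. Alkbh8, whose product completes the wobble uridine side chain by methylation and hydroxylation, was the other member with no summit, and the nearest lay 12649 bp away.

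The 4 genes classed by the base just after the anticodon had scores of 26.7 to 93.2. Trit1, which encodes the enzyme that adds an isopentenyl group there, had the highest, 93.2, above the upper quartile of all summits. Cdk5rap1, of a mitochondrial enzyme that adds a methylthio group to the same base, had 32.5. Tyw1 and Trmt12, of the early steps of wybutosine synthesis, had 26.7 and 48.8. Tyw1 held 3 summits of 19.7 to 26.7 in a row, the outermost of them shared with Sbds, a ribosome maturation gene. The median of these 4 genes was 40.7, below that of all marked genes. Trmt5 and Adat1, whose products also act beside the anticodon, were counted under methylation and deamination. Their scores of 60.4 and 63.2 were above the median of all marked genes.

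Of the adenosine deaminase genes, Adat3 had 132, Adat1 63.2 and Adat2 9.04. Adat2 and Adat3 encode the catalytic and the supporting subunit of the enzyme that makes wobble inosine, and their scores differed 14.6-fold on the score scale, which is not a scale of binding. The Adat2 summit, the weakest of the set, lay 30 bp downstream of its start and in reach of Pex3, of peroxisomes. The Adat3 summit could not be given to 1 gene, since Scamp4 starts on the same strand at nearly the same base, with offsets of 136 and 134 bp. Adat1, whose product deaminates an adenosine beside the anticodon, had a summit in reach of no other gene. Thg1l stands alone in kind, as its product adds a guanosine to the 5′ end of histidine tRNA. It had 192, at rank 114, and a second summit of 51.4 at its other end, shared with Lsm11.

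Score order by class was thus methylation (median 108), dihydrouridine (99.0), deamination (63.2), wobble (53.5), pseudouridine (41.0) and the base after the anticodon (40.7), next to 192 for the single gene Thg1l. The classes overlapped widely. Methylation genes ran from 35.4 to 372, dihydrouridine genes from 44.5 to 130.3, deaminase genes from 9.04 to 132, wobble genes from 16.03 to 161, pseudouridine genes from 19.0 to 137, and those for the base after the anticodon from 26.7 to 93.2. With 3 to 16 genes a class and no replicate, the order of neighbouring classes is not separated from their spread. Partner subunits were close in score in some pairs and apart in others. The scores were 372 and 248 for Mettl1 and Wdr4, but the first was 2.63 times for Trmt61a and Trmt6, 0.897 times for Trmt11 and Trmt112, and 8.61 times for Ctu2 and Ctu1.

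**Figure D2:**
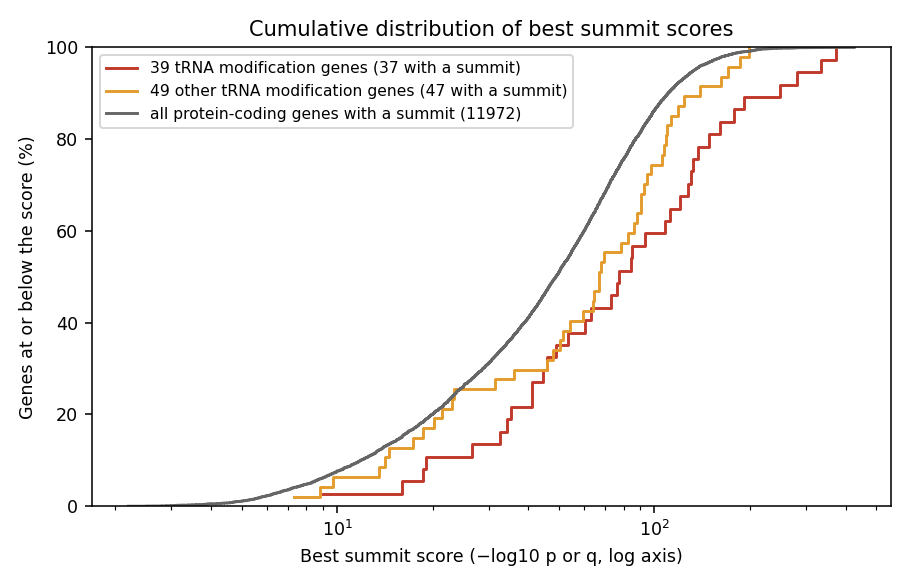
Share of genes (vertical axis, %) whose best summit score is at or below the value on the horizontal log axis, for the 37 marked members, 47 marked genes of a second list of tRNA modification genes and all 11972 marked protein-coding genes. Medians were 77.6, 66.9 and 48.9.

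Summits sat a short way downstream of the start. RefSeq starts with strand were listed for 33 of the 39 members, and 30 of these (90.9%) had a summit within 1000 bp of a start, against 52.2% of 17492 protein-coding genes with a listed start. The best of these summits lay downstream of the nearest listed start in 24 of the 30 members and in 82.6% of all such genes. Its median offset was 147 bp downstream (quartiles 81 and 200 bp), against 179 bp (104 and 244 bp) for all genes with a summit by a start. The 3 genes whose best summit was far inside their boundaries but by a listed start, Wdr4, Trmt11 and Trmt13, had it 314, 261 and 213 bp downstream. The quartiles of members and of all genes overlapped.

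The 6 members with their best summit upstream of the nearest listed start were Trmt2a, Trmt5, Dus2, Ctu2, Tyw1 and Thg1l. For Trmt2a, Trmt5 and Dus2 the same summit was downstream of a start on the opposite strand, that of Ranbp1, Slc38a6 and Ddx28. The Thg1l summit was upstream of its nearest listed start but lay 167 bp inside the gene boundary, which is itself a listed start. Among the shared summits, 11 lay within 1000 bp of the starts of both a member and a gene on the opposite strand, and the member's own start was the closer one in 8 of them. When each summit was given only to the gene with the nearest listed start, an alternative chosen after seeing the data, 26 of 33 members (78.8%) kept a summit, against 49.1% of genes, with a median of 80.9 against 47.6. Trmt2a, Trmt5, Ctu2 and Adat3 lost theirs to a neighbour in this way.

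**Figure D3:**
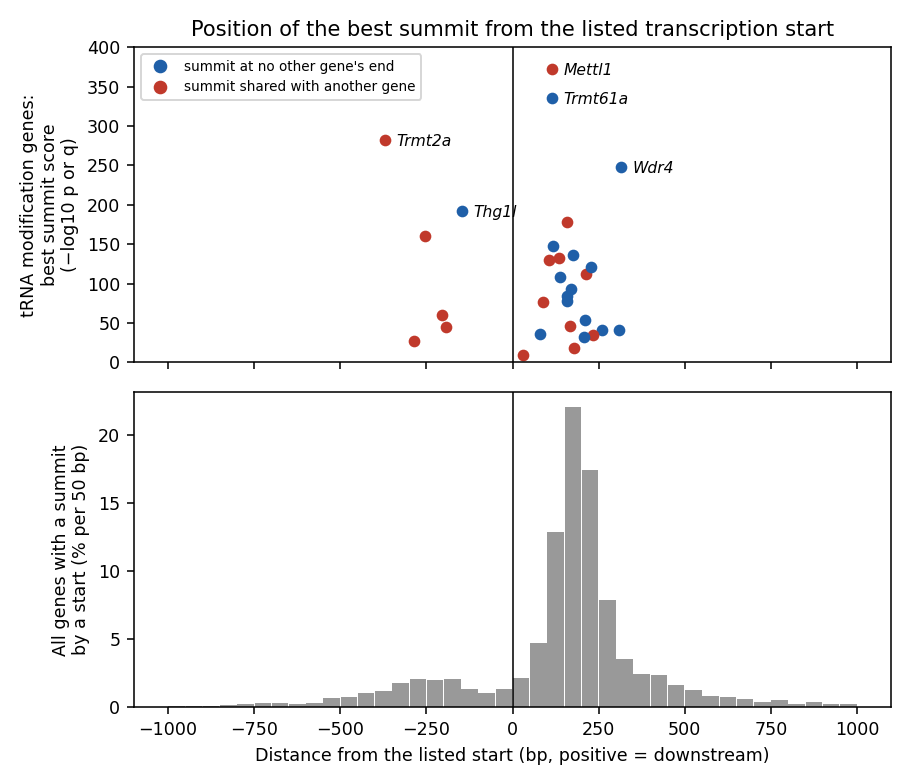
Top, best summit score against its distance from the nearest listed start (bp, positive downstream) for the 30 members with a summit by a start, red where shared with another gene. Below, the same distance for all 9128 protein-coding genes with a summit by a start, in bins of 50 bp; 24 of the 30 members and 82.6% of all these genes lie to the right of the start.

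Member promoters were richer in CpG than the average promoter but not than others with a summit. Over the 300 bases around the outermost listed start, which is not always the start nearest to the summit, the ratio of observed to expected CpG had a median of 0.787 in 33 members, 0.805 in 9128 genes with a summit by a start and 0.577 in all 17492 genes. GC content had medians of 58.0%, 62.3% and 56.3% in the same 3 sets. CpG was sparse at Alkbh8, one of the unmarked members, with 5 in the window and a ratio of 0.3497. Some marked members had similar values, with 6 and 0.334 at Adat2, and 6 and 0.382 at Trmt10b. Trmt13 had 4 and 0.229, but its window was at a gene boundary and not at the start by its summit. The summit nearest to either Trmt13 boundary was 12545 bp away. The other unmarked member, Ftsj1, had 16 and a ratio of 0.802, within the range of the marked ones. Trmt2a, with 42 and a ratio of 1.14, had the highest ratio of the 33.

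Motif letters were searched on both strands of these windows, and no motif is contained in another, though matches can overlap. The Ets motif CCGGAAG was in 10 of 33 member promoters (30.3%), 19.7% of promoters with a summit by a start and 11.9% of all. A CRE half-site, TGACG, was in 15 (45.5%), against 34.3% and 23.8%, and the E-box CACGTG, bound by Myc and its relatives, in 6 (18.2%), against 10.9% and 7.91%. The GC box GGGCGG was in 14 (42.4%), against 70.1% and 46.3%. CCAAT was in 33.3%, against 38.8% and 39.2%, and TATAAA in 9.09%, against 5.87% and 13.3%. The NRF1 core GCATGCG and the E2F motif GCGGGAA were each in 3 members (9.09%), and the YY1 core GATGGCG in 2 (6.06%), against 7.43%, 9.55% and 7.19% of promoters with a summit.

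In the sequences shown above, Trmt61a held a CRE half-site on each strand, which overlap and begin 20 bp upstream of the start, an Ets motif over the start and an E-box 25 bp downstream. Mettl1 held an E-box 30 bp downstream of the start and a CRE half-site over it. Trmt2a held 3 GC boxes, 2 E2F motifs, a CCAAT box and an NRF1 core. The unmarked Ftsj1 also held 3 CRE half-sites and a CCAAT box, and Alkbh8 a CCAAT box. A match is a run of letters and not a bound site, and none of the windows of Mettl1, Trmt61a and Trmt2a contained the summit of its gene.

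**Figure D4:**
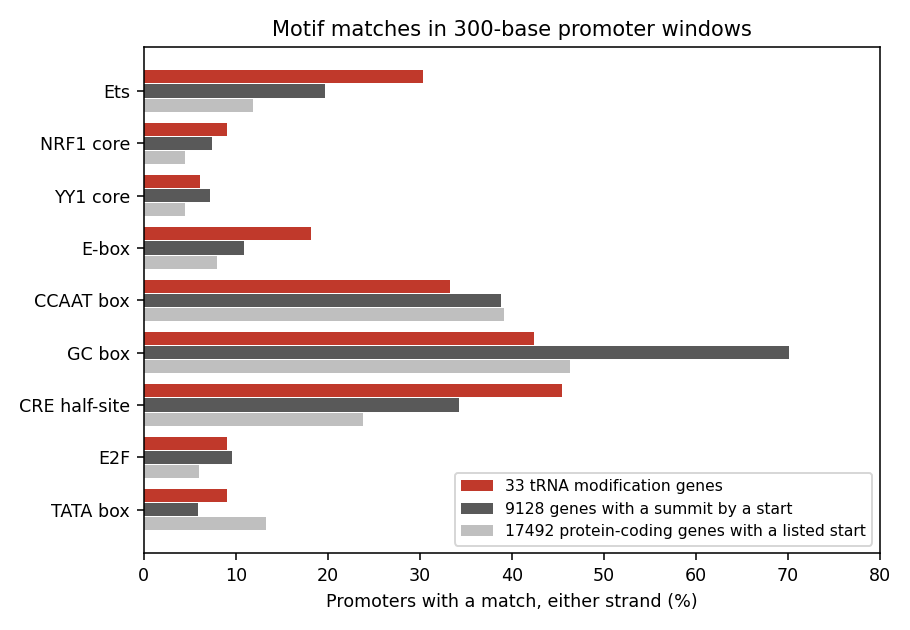
Share of 300-base promoter windows (%) with a match to each of 9 motifs on either strand, for 33 members, 9128 genes with a summit by a start and 17492 genes with a listed start. Ets matches were in 30.3%, 19.7% and 11.9%, and GC boxes in 42.4%, 70.1% and 46.3%.

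The other genes of tRNA modification were marked about as often, but their classes came in another order. A second list of 49 genes was drawn up by function and not by score, though with earlier results of these data known. It had a summit at an end or inside in 47 (95.9%) and at an end in 42 (85.7%). The shares were 94.9% and 84.6% for the 39 members and 55.0% and 48.4% for all protein-coding genes. The median best score was 66.9, and 25 of the 49 were at or above the upper quartile of all summits. By class, the medians were 91.8 over 12 wobble genes, 82.3 over 9 pseudouridine genes, 59.4 over the 13 marked of 14 methylation genes and 36.2 over the 9 marked of 10 genes for the base after the anticodon. Among the 39 members the same classes had 53.5, 41.0, 108 and 40.7, so methylation genes led there and not in the second list. The highest were Kti12, of an Elongator cofactor, with 199, Mettl2, of a 3-methylcytosine enzyme, with 187 and Yrdc, which makes the precursor of threonylcarbamoyladenosine, with 171. Thumpd1, Nat10, Pus10 and Tprkb were marked inside only, and so was Trp53rkb, with scores of 139, 105, 78.5, 23.4 and 14.6. The summits of Nat10, Pus10, Tprkb and Trp53rkb were still by a listed start, 144, 1, 81 and 56 bp downstream of it. That of Thumpd1 was 2988 bp downstream. Trmt2b and Lage3 had no summit.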

How the data were processed

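Peaks were mapped in 1 Sap130 ChIP library and called against 1 input library, per the peak names. The submitters' processing notes name Bowtie 1.1.2, MACS2 2.1.0.20140616 and GRCm38 (mm10). Neither their settings nor the threshold could be taken from the labels. The authors deposited 14886 summits of 1 base, with a −log10 p-value or q-value as score, and which of these it is could not be settled. The 5 mitochondrial entries were left out.

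Genes came from the RefSeq table of GRCm38.p6, without those off the named chromosomes or starting in the first 3 Mb of any chromosome but Y. Starts and strand came from RefSeq promoter sequences, which cover 33 members and 45 of the 49 genes of the second list. That list was drawn up with 50 names, of which 1 is not protein-coding in the table. A summit was at an end within 1000 bp of either boundary. No test was made, since there is 1 library and the members and lists were chosen with earlier results of these data known. All members were to be named. Of the second list, the 3 highest scores and the unmarked genes were to be named, and those marked only inside were added after their values were seen. Assignment was tested on simulated data. Computation ran in Python 3.11.15, with pandas 2.3.3 for tables, numpy 2.4.6 and scipy 1.17.1 for arithmetic and, for plots, matplotlib 3.10.9.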

Additional observations from a re-analysis of the deposited data

How the results depend on the processing

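By setting, the share of members marked at an end, followed by that of all genes, was 82.1% and 42.3% at 500 bp, 92.3% and 52.6% at 2500 bp, and 92.3% and 58.9% at 10000 bp. It was 84.6% and 48.3% with summits within 500 bp merged, and 82.9% of 35 members and 48.4% without 4 set aside as not enzymes themselves. Those 35 still held some non-catalytic subunits. The shares were 90.9% of 33 members and 52.2% by listed starts, and 71.8% and 31.6% with summits at or above the median score. With the upper quartile of summits alone 18 of 39 members were marked (17.3% of all genes), and 15 once shared summits were dropped (36.4%). The counts at an end or inside were 21 and 21 under these 2 settings, against 19.5% and 44.5% of all genes. The median score at an end was 131 with the upper quartile alone, where that of all genes was 91.8.

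Medians of small classes moved with the summits kept. With summits at or above the median score they were 88.9 for pseudouridine, 71.0 for the base after the anticodon and 97.7 for deamination. With the upper quartile alone they were 137, 93.2 and 132, from 1 gene each, and 148 for wobble genes. The wobble median was 101 from 2 genes without shared summits, and the pseudouridine median 91.4 with a window of 10000 bp. The methylation median stayed between 96.6 and 127 under all 7 settings tried for it. No paired analysis was possible because there is 1 ChIP library. Without read counts, how depth limits the scores could not be measured.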

Other observations

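Among the Elongator subunit genes of the second list, Elp5 had a best score of 66.9 and Elp6 17.3, and both had a summit at an end. Among genes for threonylcarbamoyladenosine, Yrdc had 171, Osgep, of the catalytic subunit of the KEOPS complex, 124, Tprkb 23.4 and Trp53rkb 14.6, while Lage3, of the same complex, had none. Osgepl1, the mitochondrial relative of Osgep, had 14.2.

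Of the 88 genes in both lists, 4 lie on the X chromosome, a subset looked at after the values were seen. Hsd17b10 was marked, with 8.84, and Ftsj1, Trmt2b and Lage3 were not, so 1 of 4 had a summit at an end or inside. On the autosomes 83 of 84 (98.8%) had one, all but Alkbh8. Over all protein-coding genes the shares were 33.9% of 963 on X and 56.6% of 20560 on the autosomes, and the median best scores of marked genes were 19.6 and 50.1.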
